A study of Homo sapiens with 47 samples.

Results

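Long intergenic noncoding RNAs were followed across the differentiation of WA09 (H9) cells, an established human embryonic stem cell line. A member was any gene whose symbol began with LINC and whose mean TPM (a transcript level scaled for length and library size) was at least 1 in at least 1 of 16 conditions. This gave 240 members of 1883 LINC genes (12.7%) among the 58051 genes in the tables. By the newer symbols of another gene table there would be 274 members, 215 of them shared. By comparison, 14598 of 19737 protein-coding genes (74.0%) reached the same level. Members were thus chosen by these TPM values, so levels and peaks are given as descriptions with no test.

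Bulk polyA RNA-seq had been run on 47 libraries from 3 differentiations, numbered 1 to 3. Undifferentiated cells (t0) were grown feeder-free in mTESR1. NMP-like cells (36h), cultures meant to resemble neuromesodermal progenitors, were made by 36 h in vitamin A-free N2B27 with CHIR-99021, which activates WNT signaling, rhFGF2, AGN193109, an inhibitor of retinoic acid receptors, and Y-27632, a ROCK inhibitor. The same additives stayed in the medium through passages P1 to P10 of pre-neural progenitor (PNP) and neural crest (NC) cultures, so all groups after t0 share them. At P5 and P8, mesenchymal (MES) and epithelial (EPI) fractions were separated by selective detachment, which enriches cells and does not purify them. Each condition had 3 libraries, except P9 with 2. All libraries came from 1 cell line.

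Long intergenic noncoding RNAs are by definition transcripts that lie between protein-coding genes and encode no known protein, and most are spliced and polyadenylated. The symbol is no guarantee of that: GENCODE 29 types 190 of the 240 members as lincRNA, 19 as processed transcripts, 15 as antisense and 11 as transcribed pseudogenes. Of the others, 2 are typed as bidirectional promoter lncRNAs, 2 as sense overlapping and 1 as protein-coding. Most are transcribed at low levels and in few cell types. Some are known from human pluripotent cells, among them LINC-ROR and LINC00458.

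Libraries held between 13029491 and 64082859 expected counts, with a median of 47292229, and members took between 0.0691% and 0.135% of them. Marker genes mostly followed the labels: the summed TPM of the pluripotent list fell from 4621 at t0 to 41.9 at P9, that of the NMP list was 2.65 at t0 and 1766 at 36h, and that of the neural crest mesenchymal list was 199.7 in P5 EPI and 605 in P5 MES. At P8 the latter sum overlapped between fractions, with 333 and 732 TPM in EPI of differentiations 2 and 3 and 316 and 469 TPM in MES of differentiations 1 and 2, though each differentiation had more in MES. Libraries of differentiation 1 often differed from the others of their time point. P1 of differentiation 1 had a pluripotent marker sum of 2917 TPM against 618 and 561 in the others, and P10 of differentiation 1 had a neural crest mesenchymal sum of 219 TPM against 1050.3 and 1189. P4 of differentiation 1 had a neural crest mesenchymal sum of 99.6 TPM against 336 and 512. At P8, differentiation 1 had a pluripotent marker sum of 779 TPM against 189 and 131, and at 36h an NMP marker sum of 595 TPM against 2295 and 2408. For P1 against 36h and for P9 and P10 against P8, calls are also given without P1, P4 and P10 of differentiation 1. Where calls without differentiation 1 as a whole are given, they are in the closing section. In bulk RNA, fewer cells of a type and less RNA per cell cannot be told apart.

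The sum of all members was 1374 ± 119 TPM at t0 (mean ± SD, n = 3), 1834 ± 451 at 36h, 1044 ± 24.4 at P1 and 1123 ± 336 at P10. Few members carried it: 57 of 240 reached 10 TPM in any condition and 7 reached 100 TPM. In order of their mean over the 16 conditions, the most abundant were LINC01896, LINC01578, LINC01002, LINC02086, LINC02381, LINC00665, LINC02210 and LINC01089. LINC01578, now named CHASERR and known to lie upstream of the chromatin remodeler gene CHD2, was present throughout, with 81, 66 and 76.2 TPM in the t0 libraries and 116, 106 and 116 TPM at P8. LINC01896 had 19.9 ± 5.94 TPM at t0 and its highest mean, 189 ± 90.3 TPM, at P7 (n = 3), and LINC02086 had 0.13 ± 0.096 TPM at t0 and 109 ± 33.8 TPM at P8. At the other end of the scale, LINC00543 (1.0 TPM in P5 EPI) and LINC00622 (1.0 TPM at P9) were the members closest above the threshold, and LINC01273 (0.98 TPM at 36h) and LINC01431 (0.98 TPM at P2) the LINC genes closest below it.

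LINC00678, LINC02582, LINC00458 and LINC-ROR were at their highest at t0 or 36h and under 3 TPM in each whole-culture library from P3 on. LINC00678 measured 259.9, 298 and 194 TPM in the 3 t0 libraries, 151, 41.6 and 1.34 TPM at 36h and 8.1, 0.15 and 0.04 TPM at P1. At both 36h and P1 it was highest in differentiation 1 and lowest in differentiation 3. LINC02582 measured 41, 79.4 and 36.3 TPM at t0, 45.3, 25.7 and 8.25 TPM at 36h and 14.2, 1.32 and 0.28 TPM at P1, and the differentiations took the same order at 36h and P1.

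LINC00458 followed another course, with 12.6, 99 and 9.61 TPM at t0, 222, 483 and 53 TPM at 36h and 55, 105 and 1.92 TPM at P1. All 3 differentiations had more of it at 36h, but the t0 library of differentiation 2 lay above the 36h library of differentiation 3, so the groups overlapped, and the rise was not called (adjusted p = 0.057, edgeR quasi-likelihood test). LINC-ROR, known as a regulator of reprogramming, was the lowest of the 4, with 1.69, 2.42 and 1.32 TPM at t0 and 5.73, 2.79 and 0.97 TPM at 36h. At P8 the counts summed over the 3 libraries were 0 for LINC00678 and 1 for LINC-ROR.

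**Figure D1:**
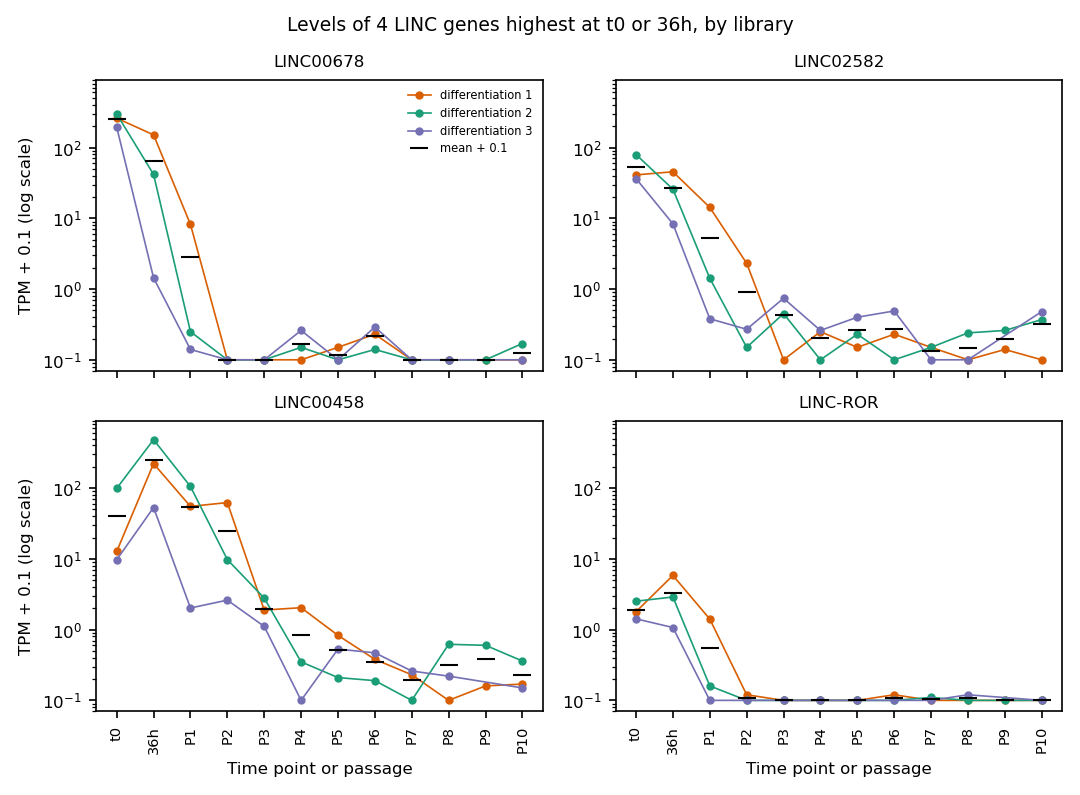
TPM plus 0.1 on a log axis for LINC00678, LINC02582, LINC00458 and LINC-ROR in every whole-culture library from t0 to P10, with 1 line per differentiation and a black bar at the mean. LINC00678 and LINC02582 were highest at t0 and LINC00458 and LINC-ROR at 36h, and all 4 were under 3 TPM from P3 on.

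Stage restriction was measured by tau, which is 0 for a gene at the same mean TPM in all 12 whole-culture time points and 1 for a gene present at only 1 of them. Over the 234 members that reached 1 TPM in a whole culture, the median tau was 0.571, with quartiles of 0.373 and 0.794, and 57 (24.4%) had a tau of 0.8 or more. For 14568 protein-coding genes the median was 0.327 and the share 10.6%, and for 737 other lincRNA genes, with a median peak of 2.49 TPM, they were 0.481 and 18.3%. Members had a median peak of 3.15 TPM and protein-coding genes one of 29.9 TPM. At like abundance the difference in medians was not in 1 direction. Among genes with a peak of 2 TPM or more and under 5, the median tau was 0.51 for 71 members and 0.629 for 1320 protein-coding genes. Among those with a peak of 20 TPM or more, it was 0.541 for 34 members and 0.252 for 8890 protein-coding genes, and 11 of the 34 members (32.4%) had a tau of at least 0.8 against 4.7%. The median peaks of this open class were 33.25 and 57.4 TPM, so abundance was matched only in part. In the classes of 1 to under 2 TPM and 5 to under 20 TPM, the median tau was 0.635 and 0.537 for members. For protein-coding genes it was 0.672 and 0.414.

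The peaks of the members were spread over the course: 48 were highest at t0, 41 at 36h or P1, 50 from P2 to P5, 50 from P6 to P8 and 51 at P9 or P10. Of the 57 with a tau of 0.8 or more, 24 peaked at t0, 12 at 36h or P1, 3 from P2 to P5, 3 from P6 to P8 and 15 at P9 or P10. Of the 2204 among all 18598 genes at that level, 973, 421, 178, 154 and 478 did so. Taken separately, the 3 differentiations put the peak in the same 1 of these 5 stages for 66 members (27.5%), and for 35 of the 57 restricted ones (61.4%).

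**Figure D2:**
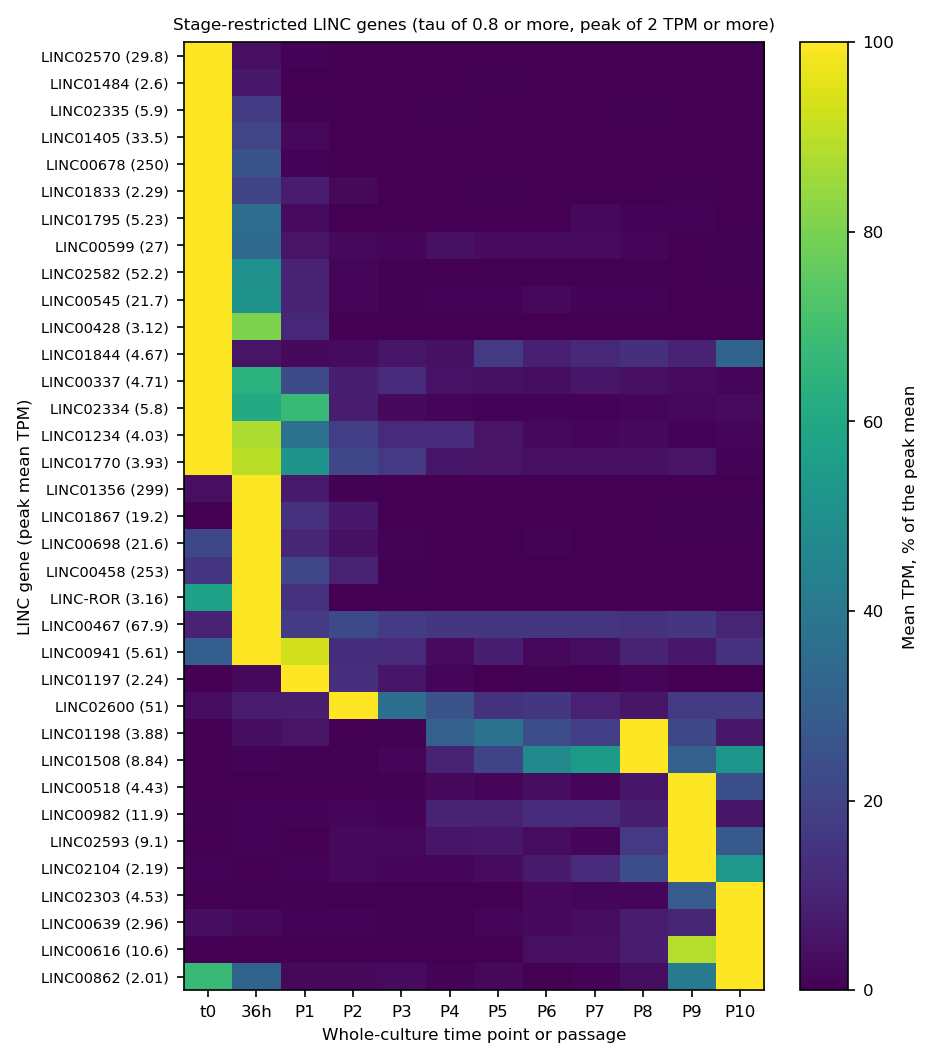
Mean TPM at each of the 12 whole-culture time points (columns, t0 to P10), as a percentage of the peak mean, for the 35 members with a tau of 0.8 or more and a peak mean of at least 2 TPM (rows, peak mean in parentheses). Most rows are bright at t0, at 36h or at P9 and P10, and few at P2 to P8.

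At t0, the members with the highest tau and a peak of 5 TPM or more were LINC02570, LINC02335 and LINC01405. LINC02570 measured 32.4, 29.7 and 27.3 TPM at t0 and 2.07, 1.09 and 0.39 TPM at 36h, with no overlap, and was at 0 in each library of P3, P4 and P5. LINC01405 measured 30.2, 41.7 and 28.5 TPM at t0 and 8.36, 9.75 and 2.82 TPM at 36h, again without overlap. LINC02335 went from 4.84, 6.22 and 6.64 TPM to 1.71, 0.71 and 0.7 TPM. The pluripotent marker genes together had 2619 TPM at 36h and 4621 TPM at t0.

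The first step, from t0 to NMP-like cells, changed 14 of the 234 members that passed the count filter at an FDR under 1% and a fold change of at least 2. There, 10 rose and 4 fell, where 1.88% of the 21750 genes tested rose and 1.94% fell (3.82% in all). Because a member could enter the set through the condition in which it was high, these shares are not read against the background here or in the comparisons that follow. Among the 68 members with at least 1 TPM in all 16 conditions, 2 rose and none fell. The 4 that fell were LINC02570 (log2 fold change -4.86 ± 0.64 SE, adjusted p = 0.00069), LINC01844, LINC01123 and LINC02335.

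The largest fitted rises were those of genes near 0 counts at t0. LINC01124 had 1 count over the 3 t0 libraries and 994 over the 3 at 36h, a ratio of 1100.1 with a 95% counting interval of 197 to 43495 (exact binomial). In TPM it measured 0.02, 0 and 0 at t0 and 5.08, 6.3 and 7.38 at 36h. It lies on chromosome 2 with its start 784 bases from that of SP5, a transcription factor gene known as a direct WNT target, in divergent orientation. Over the 16 conditions their log2 levels correlated with r = 0.919. LINC01867 went from 3 to 722 counts, a ratio of 266 (95% interval 90.8 to 1295), with 24.3, 22.5 and 10.6 TPM at 36h, and was back at 0 in every library of P4 and P5.

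LINC01356 was the most abundant member of any condition, and its rise was both large and brief. It measured 12, 15.8 and 10.4 TPM at t0, 516, 281 and 100.01 TPM at 36h, 60.5, 4.61 and 0.45 TPM at P1 and 3.85, 0.1 and 0.26 TPM at P2. The t0 and 36h groups did not overlap (log2 fold change 4.04 ± 0.92 SE, adjusted p = 0.005, higher in 3 of 3 differentiations). Differentiation 1, in which it was highest at 36h, also held the most at P1. LINC00467 rose in the reverse order of differentiations, from 7.02, 6.67 and 6.68 TPM to 32, 55 and 117 TPM (log2 fold change 2.94 ± 0.36 SE, adjusted p = 7.6e-06).

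In differentiation 1, which had the lowest NMP marker sum at 36h, LINC00467 was lowest and LINC01356 highest. In differentiations 1, 2 and 3 the paraxial mesoderm sum was 8.81, 132 and 631 TPM, in the order of LINC00467, and the pluripotent sum 3503, 2719.9 and 1634 TPM, in the order of LINC01356. The part of these differences in the results was not tested. LINC02418 rose as well (adjusted p = 0.0035), but its 36h values of 0.16, 0.94 and 4.06 TPM differed widely. The other members that rose were LINC00638, LINC01547, LINC02249, LINC00963 and LINC01410. With only differentiations 1 and 3 there were 3 calls (92 among all 22526 genes tested), of which 2 were among the 14, and with only differentiations 1 and 2 there were 3 (101 of 21110), all among the 14.

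From 36h to P1, 3 members rose and 4 fell of the 234 tested, where 0.653% of all genes rose and 1.05% fell (1.71% in all). The falls were those of LINC01356 (log2 fold change -4.63 ± 0.96 SE), LINC02335, LINC00467 and LINC01002. LINC01002, one of the most abundant members, had 128, 130.0 and 105 TPM at 36h and 40.7, 68.6 and 66.6 TPM at P1. LINC01963 went from 3.6, 3.67 and 3.0 TPM to 6.69, 8.27 and 6.35 TPM, LINC00680 from 2.73, 2.08 and 3.18 TPM to 4.87, 6.82 and 5.15 TPM and LINC00476, now named ERCC6L2-AS1, from 5.07, 4.47 and 4.23 TPM to 6.19, 11.6 and 14.3 TPM, each with no overlap.

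Without P1 of differentiation 1 alone, a fit added after the data had been seen, 19 members were called, of which 6 were among the 7, and 5.08% of all genes were called. The call lost was that of LINC01002. Without P4 and P10 of that differentiation as well, 21 members were called, of which the same 6 were among the 7, and 5.82% of all genes were called. Of these 21, 11 fell, LINC00678, LINC-ROR and LINC00545 among them, and 10 rose, with LINC02381, LINC01571 and LINC00092. LINC01571 measured 0.99, 0.48 and 3.02 TPM at 36h and 0.99, 21.2 and 29.8 TPM at P1, and in differentiation 1 it reached the level of the others only at P2, with 26.1, 14.7 and 14.7 TPM. LINC02381 did the same, with 4.38, 48.5 and 67.2 TPM at P1 and 75.9, 88.8 and 70.4 TPM at P2. Without differentiation 2 or without differentiation 3, no member was called, and of all genes 2 and 12 were.

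From P1 to P5, 8 members rose and 11 fell of the 234, where 2.88% of all genes rose and 3.12% fell (6.00% in all). The 5 with the largest fitted falls were LINC01356, LINC01867, LINC00458, LINC00698 and LINC01770. LINC01356 had 642 counts over the P1 libraries and 2 over the P5 libraries, a ratio of 397 (95% interval 109.5 to 3288). LINC01867 had 72 and 0 counts, at least 29.7-fold lower against a floor of 3 counts over the group. LINC00458 fell with a log2 fold change of -6.52 ± 1.27 SE (adjusted p = 0.0011). The other members that fell were LINC01234, LINC01806, LINC00664, LINC01376, LINC00337 and LINC02575. LINC00664 had 5.39, 5.7 and 8.08 TPM at P1 and 1.44, 1.01 and 1.06 TPM at P5, with no overlap. Only 3 of the 19 calls were made without differentiation 2 and only 2 without differentiation 3 (121 of all genes in each case), and none when the fit held only P1 and P5 (2 of all genes). Without P1 of differentiation 1 alone there were 17 calls (1487 of 21727 genes), of which 12 were among the 19. The calls of LINC01770, LINC01376, LINC00337, LINC02575, LINC02593, LINC00323 and LINC00652 were then lost, and falls of LINC00924, LINC01197, LINC00900 and LINC02525 and a rise of LINC01315 were added. Between P1 and P5 the paraxial mesoderm marker sum went from 243 to 3.04 TPM and the NMP sum from 558 to 124 TPM. The neural crest mesenchymal sum went from 128 to 330 TPM and the pre-neural epithelial sum from 610 to 742 TPM. The pluripotent sum went from 1365 to 818 TPM, with POU5F1 at 296 and 0.703 TPM. By differentiation this sum was 2917, 618 and 561 TPM at P1 and 897, 898 and 659 TPM at P5, lower only in differentiation 1. The pre-neural epithelial sum was 1236, 340 and 256 TPM at P1 and 936, 791 and 499 TPM at P5. It too was lower only in differentiation 1. The part of these lists in the changes of the members was not tested.

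The largest fitted rise between P1 and P5 was that of LINC02086, whose nearest protein-coding start, 13351 bases away, is that of a HOXB gene, 1 of the homeobox genes that pattern the body axis. It measured 0.24, 0.09 and 0.06 TPM at t0, 1.21, 0.51 and 0.4 TPM at P1, 9.11, 32 and 10.5 TPM at P3 and 75.2, 121 and 50.8 TPM at P5 (P5 against P1, log2 fold change 6.80 ± 0.81 SE, adjusted p = 8.9e-06). Its rise was slow, over several passages, and the groups at P1 and P5 did not overlap. LINC02593, LINC01508, LINC00323, LINC00674, LINC02249, LINC00652 and LINC00997 rose too. LINC01508 measured 0.17, 0 and 0 TPM at P1, 0.59, 3.58 and 1.23 TPM at P5 and 6.88, 16.1 and 3.55 TPM at P8.

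Other abundant members of the passaged cultures came on at their own times. LINC02381 was already at 75.9, 88.8 and 70.4 TPM at P2 and at 68.8, 16.2 and 13 TPM at P8. LINC01116 had 0.12, 2.16 and 2.14 TPM at P1 and 28.5, 36.5 and 19.3 TPM at P5. LINC02381 was highest at P4 by its mean (95.5 ± 27.2 TPM), LINC01116 at P7 (30.6 ± 14.7 TPM) and LINC02086 at P8, each with n = 3. For each of them the values of neighbouring passages overlapped from P5 to P8.

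**Figure D3:**
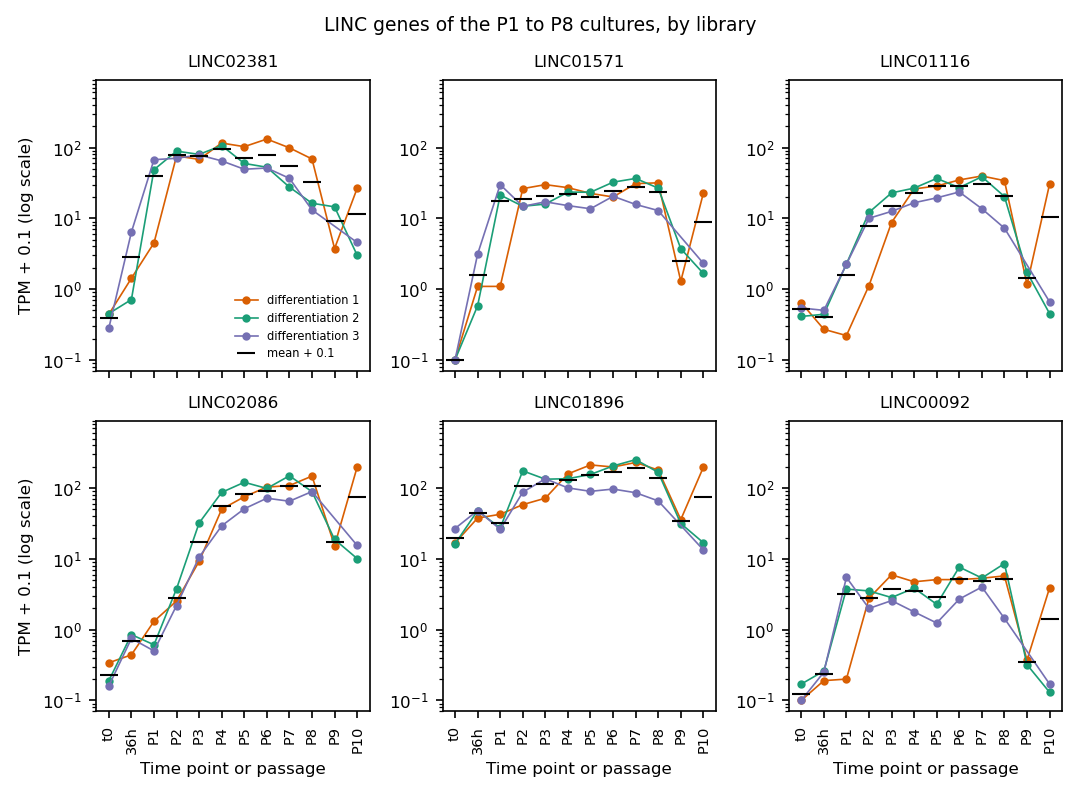
TPM plus 0.1 on a log axis for LINC02381, LINC01571, LINC01116, LINC02086, LINC01896 and LINC00092 in every whole-culture library from t0 to P10, with 1 line per differentiation and a black bar at the mean. Differentiation 1 lags behind the others at P1 for LINC02381, LINC01571 and LINC00092, and at P10, unlike at P9, it lies near its P8 level for LINC01571, LINC01116, LINC02086 and LINC01896.

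Between P5 and P8 no member was called (edgeR), and 22 of the 234 had an unadjusted p under 0.05, where 2892 of the 21750 genes tested did. DESeq2 with the same block called 1 member (0.979% of all genes). By edgeR 0.00920% of all genes were called in this comparison. From P2 to P5 the members with the highest tau and a peak of at least 5 TPM were LINC02600, LINC00379 and LINC01894. From P6 to P8 they were LINC01508, LINC00511 and LINC02086, and LINC00511 had its highest whole-culture mean, 11.5 TPM, at P8. LINC02600 measured 2.3, 4.53 and 5.12 TPM at P1, 11.6, 70.5 and 70.8 TPM at P2, 2.15, 22 and 32 TPM at P3 and 17.2, 2.07 and 3.35 TPM at P5. Its peak at P2 was that of differentiations 2 and 3, and differentiation 1 was highest at P4. LINC00379 likewise had 0, 7.06 and 16 TPM at P2 and 2.13, 2.79 and 5.18 TPM at P4.

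Over the whole span from t0 to P8, a comparison added after the data had been seen, 52 members rose and 48 fell of the 234 tested, where 12.1% of all genes rose and 12.9% fell (25.0% in all). Of the 68 members at 1 TPM or more in every condition, 13 rose and 6 fell. Over this span the pluripotent marker sum went from 4621 to 366 TPM and the neural crest mesenchymal sum from 26.7 to 373 TPM. The pre-neural epithelial sum went from 287 to 652 TPM and the muscle sum, that of ACTA2, from 3.28 to 319.6 TPM. Of the pre-neural epithelial list, CDX2 (0.2 and 174 TPM), CDH2 (36.2 and 232 TPM) and SOX21 (1.48 and 3.83 TPM) were higher at P8. SOX2 had 183 and 184 TPM, FGFR2 51.4 and 52.5 TPM and NKX1-2 15.5 and 5.4 TPM. The part of these lists in the changes of the members was not tested. The largest fitted falls were those of genes at or near 0 counts at P8. LINC00678 had 14979 counts over the t0 libraries and 0 over the P8 libraries, at least 5515-fold lower against a floor of 3 counts over the group, and LINC02570 was at least 674-fold lower. LINC02582 had 3385 and 3 counts, a ratio of 1165 (95% interval 426 to 6046). LINC01833 and LINC01484, at under 3 TPM at t0, also fell to 0 counts, at least 81.7-fold and 73.6-fold lower. LINC01405 (914 and 2 counts) and LINC-ROR (383 and 1) had ratios of 505 (95% interval 139 to 4174) and 423 (75.5 to 16752). At moderate levels, LINC00665 fell in each differentiation, from 84.2, 75.3 and 84.4 TPM to 24.9, 19.9 and 20.8 TPM (log2 fold change -2.01 ± 0.21 SE, adjusted p = 6.2e-08). LINC-PINT, a p53-induced RNA, fell from 1.81, 1.55 and 1.23 TPM to 0, 0.23 and 0 TPM.

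The largest fitted rises over the same span were those of LINC01571, LINC02086, LINC00616, LINC01124 and LINC00543. LINC01571 had 0 counts in each t0 library and 1111 over the P8 libraries, at least 335-fold higher, with 31.6, 26.6 and 12.8 TPM. LINC02086 rose by 9.96 ± 0.97 (SE) on the log2 scale. LINC00616 and LINC00543, with 0 counts at t0 and 113 and 118 at P8, were at least 34.1-fold and 35.6-fold higher, so their place in this order rests on the fit. By counts, LINC01508 (2 and 720) and LINC00092 (3 and 762) had ratios of 326 (95% interval 89.9 to 2696) and 230.0 (78.4 to 1118). Among members already present at t0, LINC00680 rose from 2.4, 1.5 and 1.06 TPM to 11.6, 11.1 and 9.44 TPM (log2 fold change 2.89 ± 0.17 SE, adjusted p = 1.1e-11) and LINC01963 from 4.46, 3.51 and 3.9 TPM to 19.4, 14.8 and 16.9 TPM. Without differentiation 2 the calls were 45 and without differentiation 3 they were 59, all of them among the 100, and of all genes 2681 and 3169 were called.

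**Figure D4:**
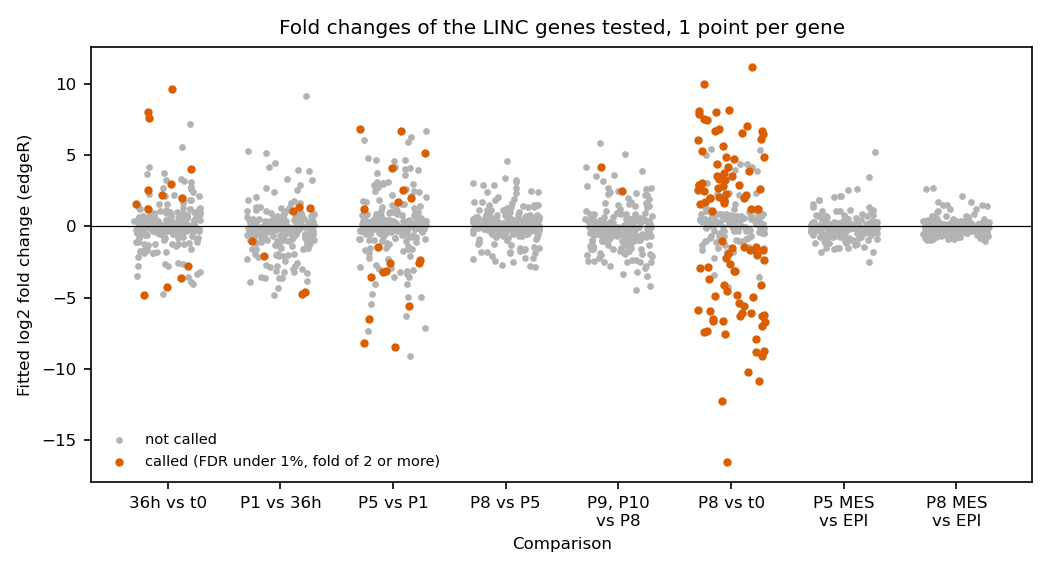
Fitted log2 fold change (edgeR) of each member tested, 1 point per gene, in 8 comparisons, with called members in orange. Calls are most frequent for P8 against t0, with 52 higher and 48 lower, and there are none between P5 and P8 or between the fractions. Fitted values of genes near 0 counts depend on the fit and are no measured folds.

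In the last passages 2 members rose and none fell against P8, where 0.837% of all genes rose and 0.823% fell (1.66% in all). These were LINC00862 and LINC01415. LINC00862 measured 0.05, 0.05 and 0.1 TPM at P8, 0.65 and 1.0 TPM at P9 and 0.05, 1.48 and 4.49 TPM at P10 (log2 fold change 4.17 ± 0.93 SE, adjusted p = 0.0075). It had also been present at t0, with 1.06, 1.44 and 1.57 TPM. LINC01415 took the same course at a lower amplitude, from 1.44, 1.36 and 1.67 TPM at t0 through 0.06, 0.1 and 0.38 TPM at P8 to 0.06, 0.91 and 1.07 TPM at P10. Both were as low at P10 of differentiation 1 as at P8.

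Neither call was made without the replicate block, with a mean of at least 100 counts or in a fit of only the compared groups. Without P10 of differentiation 1 alone, again added after the data had been seen, 22 members were called (7.31% of all genes). Without P4 and P1 of differentiation 1 as well, 6 members rose and 16 fell, both earlier calls among them, and 8.05% of all genes were called. The falls were led by LINC00092 (log2 fold change -5.85, adjusted p = 9.9e-07) and included LINC01116, LINC01117, LINC01571, LINC02086 and LINC01896. LINC02086 measured 148, 88.9 and 89.3 TPM at P8, 15.2 and 18.7 TPM at P9 and 198, 9.99 and 15.4 TPM at P10, and LINC01896 179.8, 167 and 65.8, 35.8 and 31.4 and 197, 16.8 and 13.3 TPM. For both, only P10 of differentiation 1 lay at or above the P8 values. The summed TPM of the pre-neural epithelial list was 652 at P8, 141 at P9 and 764, 73.8 and 146 in the 3 libraries of P10. From P8 to P9 the neural crest mesenchymal sum went from 373 to 1181 TPM and the muscle sum, that of ACTA2, from 319.6 to 19.3 TPM. Of the neural crest list, TWIST1 (80.2 and 494 TPM), SNAI2 (82.5 and 358 TPM), SNAI1, TFAP2A and PDGFRB were higher at P9. SOX9 (98.3 and 30.8 TPM), TFAP2B (56.45 and 38.6 TPM) and SOX10 (5.73 and 0.88 TPM) were lower. The pluripotent sum went from 366 to 41.9 TPM, with LIN28A at 299 and 0.87 TPM, and the neuron sum from 199 to 310.4 TPM at P9 and 384 TPM at P10. Their part in these changes was not tested. The rises added were those of LINC00616, LINC00518, LINC02341 and LINC00960. LINC00616 measured 0.09, 1.11 and 1.2 TPM at P8, 2.28 and 16.6 TPM at P9 and 1.06, 28.2 and 2.57 TPM at P10, where only differentiation 1 lay within the P8 values.

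Single libraries set some of the highest means at P9. LINC00982, whose start lies 731 bases from that of PRDM16, a gene for a zinc finger regulator, measured 23.2 and 0.49 TPM at P9 and 0.72, 1.24 and 0.06 TPM at P10. LINC02593, next to SAMD11, measured 15 and 3.22 TPM at P9 and 0.54, 1.1 and 5.95 TPM at P10. P9 had 2 libraries, and for both genes that of differentiation 1 was the higher.

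Between the fractions no member was called at either passage or in the difference between passages, of 187 tested, and 0% of all genes were called by edgeR at an FDR under 1%. At an unadjusted p under 0.05 there were 37 members in P5 MES against EPI, 14 at P8 and 5 in the difference between passages, of 187 tested each, where 4894, 2261 and 1152 of the 18885 genes tested passed. At an FDR under 5%, 10 members passed at P5 (3.63% of all genes), with 2 higher and 8 lower in MES, and DESeq2 called 8, with 1 higher and 7 lower (4.41% of all genes). None passed at P8 by either (0% of all genes at an FDR under 5% by edgeR and 0.323% by DESeq2). The 8 lower in MES were LINC01896, LINC02086, LINC01571, LINC01315, LINC00092, LINC02043, LINC00543 and LINC01915, and the 2 higher were LINC01198 and LINC01387.

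LINC02086 measured 84.9, 134 and 90 TPM in P5 EPI and 31.3, 64.8 and 16.3 TPM in P5 MES, with no overlap, and was lower in MES in each differentiation (log2 fold change -1.61 ± 0.40 SE, adjusted p = 0.045). LINC01571 measured 29.6, 34.4 and 18.4 TPM in P5 EPI and 10.9, 13.2 and 5.33 TPM in P5 MES, also without overlap (log2 fold change -1.55 ± 0.33 SE, adjusted p = 0.031). LINC01896 measured 225, 169.8 and 121 TPM and 142, 80.5 and 42.8 TPM, where the fractions overlapped but each differentiation was lower in MES. At P8 the same 3 were again lower in MES in each differentiation, with LINC01571 at 32, 28 and 21.1 TPM in EPI and 24.6, 19.7 and 4.39 TPM in MES.

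In the other direction, LINC00379 measured 0.16, 2.06 and 2.7 TPM in P5 EPI and 5.7, 4.91 and 7.91 TPM in P5 MES, and LINC01387 0.16, 0.32 and 0.42 TPM and 3.19, 0.92 and 1.73 TPM. At P8 both were still higher in MES without overlap, at under 1 TPM. Counted over the 157 members with at least 1 TPM in a fraction, 15 had all 3 P5 MES values above all 3 EPI values and 22 had them below, where 14.0% of all genes at that level were above and 17.3% below. At P8 the counts were 7 and 3, where 5.76% and 2.89% of all genes were. At both passages LINC00379 and LINC01387 were above (2.30% of all genes) and LINC01122 was below (0.866%). Besides the neural crest list, the summed TPM of the muscle list was 77.1 in P5 EPI and 262 in P5 MES, which was that of ACTA2, with MYOD1 and MYOG near 0. The pre-neural epithelial list went the other way, with 937 TPM in P5 EPI and 339 in P5 MES. The neuron list had 229 and 122 TPM, of which TUBB3 had 224 and 114 TPM. STMN2 (3.45 and 5.37 TPM) and DCX (0.857 and 1.85 TPM) of that list were higher in MES, and ELAVL3 had 0.8 and 0.78 TPM. The summed TPM of the pluripotent list was 1015 and 510.2, where LIN28A had 887 and 357 TPM, and DPPA4 (19.5 and 43.9 TPM) and L1TD1 (103 and 107 TPM) were higher in MES. Their part in these differences was not tested.

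**Figure D5:**
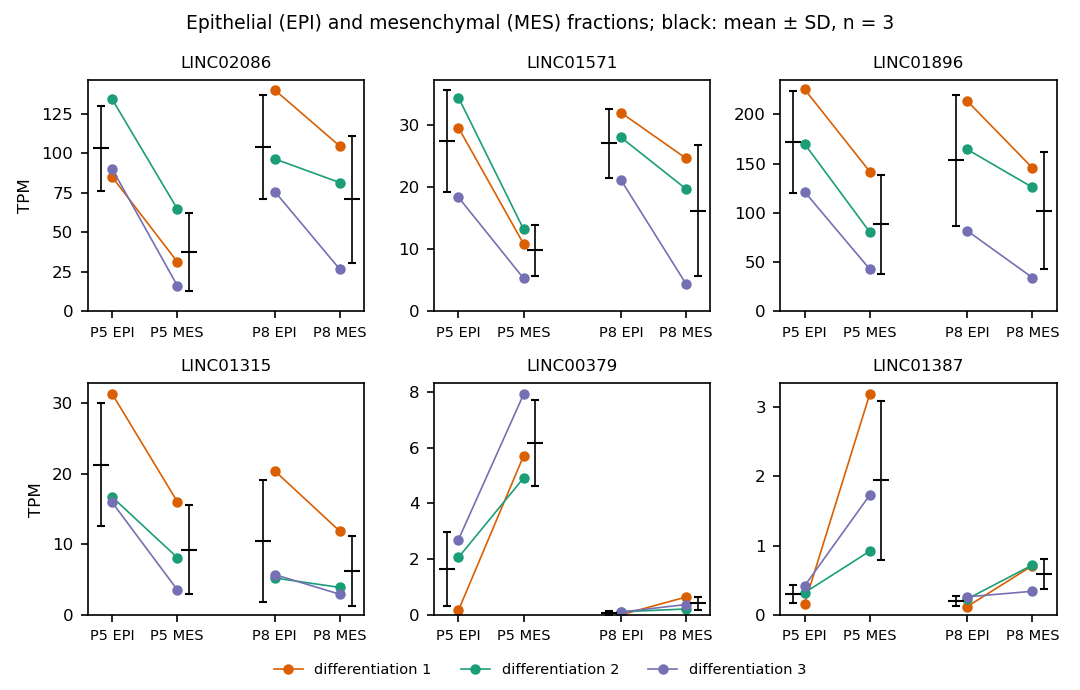
TPM of LINC02086, LINC01571, LINC01896, LINC01315, LINC00379 and LINC01387 in the EPI and MES fractions of P5 and P8, with lines joining the fractions of 1 differentiation and black marks at the mean ± SD (n = 3). The first 4 are lower in MES and the last 2 higher at P5.

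Many members start far from the nearest protein-coding start. This is not the distance from the gene, as exons of LINC00863 and NUTM2D overlap though their starts lie 14932 bases apart. The median distance from a member's start to the nearest protein-coding start was 52015 bases, and 28 members lay within 1000 bases, of which 17 were divergent. For the 191 members whose neighbour reached 1 TPM, the correlation of log2(mean TPM + 1) over the 16 conditions had a median r of 0.422, with quartiles of -0.05 and 0.694. For 11862 protein-coding genes and their own nearest neighbours the median was 0.229. The points share libraries and neighbouring passages, so r is a description. Members within 5000 bases of their neighbour (39 pairs) had a median r of 0.668, and those over 50000 bases away (97 pairs) of 0.217. For divergent pairs within 1000 bases it was 0.644 over 16 pairs, against 0.27 over 1149 pairs of protein-coding genes. Exons of some close pairs overlap, on the same strand for LINC01578 and AC013394.1 (r = 0.852), LINC01619 and BTG1 (r = 0.934) and LINC01011 and NQO2 (r = 0.578). On the opposite strand they include LINC00476 and ERCC6L2 (r = 0.938) and LINC01481 and CNOT2 (r = 0.429). Reads of such pairs can be assigned to either gene, and the pairs were not left out. Their part in these medians was not tested.

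The highest r was that of LINC01833 and SIX3, a homeobox gene of the forebrain and eye, at 0.997 with starts 2699 bases apart, and SIX3 reached only 2.71 TPM. LINC02593 and SAMD11 had r = 0.99 and LINC01896 and SALL3, a zinc finger gene, r = 0.965, at 2912 and 1201 bases. LINC02600 and ADRA2C, which encodes an adrenergic receptor, had r = 0.876. LINC00678 and BDNF, a neurotrophin gene whose start lies 87431 bases away, had r = -0.051, and LINC02582 and NETO1 r = 0.189. The genes nearest to LINC00458 and LINC-ROR stayed under 1 TPM.

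Promoter windows of RefSeq, from 250 bases before to 50 after a start on GRCh38.p14, were found for 145 members. Their median GC content was 55.3%, with quartiles of 46.0% and 67.0%, and that of all 27305 windows was 58.3%. On either strand, TATAAA was in 18 of the 145 (12.4%) and in 12.0% of all windows, CCAAT in 63 (43.4%) and in 35.7%, the octamer ATGCAAAT, bound by POU factors, in 3 (2.1%) and in 1.8%, and TTTGCATA in none and in 1.3%. The windows of LINC01116 and LINC01117 overlap on opposite strands by 244 bases, and those of LINC00526 and LINC00667 by 170 bases. LINC01117 stayed low, with 1.29, 1.27 and 0.48 TPM at P5 where LINC01116 had 28.5, 36.5 and 19.3 TPM. LINC00667 had 26.8, 26.6 and 25 TPM there and LINC00526 4.32, 3.92 and 3.1 TPM.

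LINC01106 and LINC01123 carry identical promoter windows over 289 bases at separate places on chromosome 2. LINC01123 measured 1.19, 1.26 and 0.91 TPM at t0 and 0.03, 0.05 and 0.2 TPM at 36h (log2 fold change -3.62 ± 0.90 SE, adjusted p = 0.0087), and LINC01106 1.35, 1.54 and 2.18 TPM and 0.46, 0.14 and 0.13 TPM, which was not called (adjusted p = 0.029, edgeR). Reads from such copies can be divided between them by the quantification, so the pair cannot be told apart with certainty. The window of LINC01123, at chr2:109986730-109987029 (plus strand) of GRCh38.p14, is printed with the bases shared with LINC01106, whose window is at chr2:110384487-110384786 (minus strand), in capitals.
LINC01123: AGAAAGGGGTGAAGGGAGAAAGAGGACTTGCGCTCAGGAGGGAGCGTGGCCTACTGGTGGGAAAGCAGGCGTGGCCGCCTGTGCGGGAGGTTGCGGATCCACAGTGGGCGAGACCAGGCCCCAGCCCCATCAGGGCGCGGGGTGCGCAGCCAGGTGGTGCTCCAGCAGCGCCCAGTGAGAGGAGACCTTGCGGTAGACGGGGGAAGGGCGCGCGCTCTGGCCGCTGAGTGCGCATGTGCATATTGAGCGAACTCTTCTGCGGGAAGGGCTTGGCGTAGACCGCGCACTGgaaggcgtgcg

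The other near-identical windows were those of LINC01001 and LINC01002 (98.7% over 233 bases), LINC01138 and LINC01145 (97.5% over 202 bases) and LINC00869 and LINC01145 (98.9% over 180 bases). LINC01002 and LINC01001 were both highest at 36h, with LINC01001 at 42.4, 28.7 and 28 TPM there. LINC00869, LINC01138 and LINC01145 had their highest means at P8 or P9. Their values are uncertain in the same way, and 36 of the 240 members had counts that were not whole in at least 24 libraries. An exon of 35 members overlaps an exon of another gene on the same strand and that of 64 members one on the opposite strand. Without the strand setting, which is not given in the sources used here, reads from such partners cannot be told apart. Members with a partner on the same strand include LINC-PINT, LINC00664, LINC00680, LINC01002, LINC01089, LINC01198, LINC01578, LINC02210 and LINC02418, and those with a partner on the opposite strand include LINC00476, LINC00616, LINC01116, LINC01123, LINC01356, LINC01833 and LINC02086.

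For comparison, 27 well-known lncRNAs with other names were followed in the same fits. From t0 to P8, 7 rose and 6 fell, where 12.1% of all genes tested rose and 12.9% fell. ESRG, a lncRNA of pluripotent cells, fell (log2 fold change -9.65 ± 1.49 SE, adjusted p = 1.3e-05), as did LNCPRESS1, FIRRE, DANCR, MEG3 and MIAT. MIR99AHG rose (7.76 ± 1.51 SE, adjusted p = 0.00019), together with CARMN, CYTOR, KCNQ1OT1, NEAT1, MALAT1 and CRNDE. At the first step, from t0 to 36h, none of the 27 was called by edgeR (3.82% of all genes), and between the fractions none of the 25 tested (0% of all genes). From 36h to P1, MIAT and OIP5-AS1 fell and none rose, where 1.05% of all genes fell and 0.653% rose. From P1 to P5, MIR99AHG and SOX21-AS1 rose and ESRG and LNCPRESS1 fell, where 2.88% of all genes rose and 3.12% fell. None was called at P8 against P5 (0.00920% of all genes) or at P9 and P10 against P8 (1.66%).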

How the data were processed

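Reads were processed by the authors, who deposited RSEM gene tables. The submitters' processing notes name cutadapt 1.16, STAR 2.5.2b, RSEM 1.3.0 and GRCh38. The annotation release and the strand setting are not given in the sources used here. Deposited expected counts are estimated reads per gene, not normalized, and can be fractional where reads fit several genes. Deposited TPM values, from the authors' RSEM runs, are scaled by the deposited effective length in bases and by library. Gene IDs were matched to GENCODE 29 symbols for 57447 of 58051 genes.

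Expected counts were rounded and tested with edgeR 4.0.16 (quasi-likelihood test, TMM scaling, filterByExpr) in R 4.3.3, with condition and differentiation number as terms. The 35 whole-culture libraries (21750 genes passed the filter) and the 12 fraction libraries (18885 genes) were fitted separately. A gene was called at a Benjamini-Hochberg FDR under 1% over all genes tested and a fold change of at least 2. The SE of a log2 fold change was its size divided by the square root of F. By the series' design text, each differentiation was followed through the time points (P9 of differentiation 3 is not analysed here), so its number pairs libraries. The mean correlation of deviations between libraries of 1 number was 0.64 between P5 fractions, 0.77 between P8 fractions and between -0.02 and 0.3 along the time course, where single pairs went down to -0.11. Replicates are 3 differentiations of 1 cell line, and p-values measure only the spread between them. Alternatives left out the block, a differentiation, the count filter or P1, P4 and P10 of differentiation 1 (P1 or P10 alone were added after seeing the data), or used DESeq2 1.42.0, other size factors, other thresholds or only the compared groups. Tests were checked on simulated counts.

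Members, gene lists and comparisons were chosen with earlier results of these data known. Genes were named by rule: the 8 most abundant members, the 5 largest called changes in each direction of a comparison, the 3 highest tau values of each stage with a peak of at least 5 TPM, and the members with shared promoters. LINC-ROR and LINC00458, and the LINC genes closest to the TPM threshold, were also named by rule. Other genes named were chosen after their values were seen. RefSeq promoters were compared with blastn 2.17.0. A comparison of transcript starts is not reported here. Intervals and floors of 3 counts cover counting error only.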

Additional observations from a re-analysis of the deposited data

How the results depend on the processing

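None of the 38 named fold changes reversed over 431 values under alternatives, of which 303 stayed on their side of the threshold and 128 no longer passed. Without the replicate block 29 still passed and 9 did not, and the number of members called changed by over 1.5 times only for P9 and P10 against P8, from 2 to 0 (45 of all genes). At an FDR under 5%, 27 members (1617 of all genes tested) were called at 36h against t0, 22 (1094) at P1 against 36h, 49 (2447) at P5 against P1, 1 (49) at P8 against P5, 13 (1281) at P9 and P10 against P8 and 10 (685) in P5 MES against EPI, with 234 members of 21750 genes tested, or 187 of 18885 for the fractions. With a mean of at least 100 counts, 7 (578) were called at 36h, 5 (864) at P5, 0 (270) at P9 and P10, and 34 (3311) at P8 against t0. DESeq2 called 13 (905) at P1, 36 (2097) at P5, 1 (213) at P8 against P5, 7 (1091) at P9 and P10, and 8 (832) in P5 MES against EPI. With no filter on low counts there was 1 call (301) at P9 and P10 and 1 (85) in P5 MES against EPI. A fit of only the compared groups, which has fewer libraries, called 4 (174) at 36h, 0 (0) at P1, 0 (2) at P5 and 0 (0) at P9 and P10. Without P1, P4 and P10 of differentiation 1, there were 21 calls at P1 and 22 at P9 and P10. Without P1 of differentiation 1 alone there were 19 at P1, and without its P10 alone 22 at P9 and P10.

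Leaving out 1 differentiation at a time gave between 3 and 17 calls (92 and 1162 of all genes) at 36h against t0, 0 and 24 (2 and 1262) at P1 against 36h, 2 and 26 (121 and 1751) at P5 against P1, 0 and 21 (0 and 1337) at P9 and P10 against P8, and 45 and 95 (2681 and 5446) at P8 against t0. The higher number came without differentiation 1 in each case. A minimum of 2 TPM left 156 members. The cause of these shifts was not tested. The median peak of members was 3.15 TPM.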
